A study of Mus musculus with 18 samples.

Results

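The genes that make amino acids and carry them across membranes were examined as 1 group in mouse melanoma cells under endoplasmic reticulum (ER) stress. The group was given as a list of 33 gene symbols, 18 enzymes and 15 transporters with these functions, and was drawn up with earlier results of these data known, so its contrast with other genes is a description. Of these, 32 (17 enzymes and 15 transporters) had a probe set that carries a single gene symbol, among 19938 genes measured in all. Pycr1 was not analysed here.

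The cells were B16 F10.9-4, derived from the murine B16 melanoma, and mRNA levels were read on 18 one-colour arrays. Doxycycline switched on LIP in these cells. LIP is a short form of C/EBPβ, a transcription factor encoded by Cebpb; it keeps the DNA-binding end and has little of the activation domain. Tunicamycin blocks N-linked glycosylation and so loads the ER with unfolded protein. There were 6 groups: doxycycline alone, doxycycline then tunicamycin for 5 h, doxycycline then tunicamycin for 12 h, tunicamycin alone for 5 h, tunicamycin alone for 12 h, and vehicle, which with doxycycline alone was taken at 0 h. Each group had 3 arrays, 1 from each of 3 independent experiments. Vehicle arrays at 5 or 12 h, and cells lacking the construct but given doxycycline, were not analysed here. Time in culture therefore cannot be told apart from tunicamycin, nor an effect of doxycycline itself from that of LIP.

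Cells short of an amino acid, and cells with unfolded protein in the ER, activate separate kinases that phosphorylate the same translation initiation factor. General protein synthesis then slows while the transcription factor ATF4 (gene Atf4) is made. ATF4 forms dimers with C/EBP proteins and with CHOP (gene Ddit3), and these can bind composite C/EBP-ATF response elements in the promoters of genes for amino acid synthesis and uptake. The list covers 5 roles: synthesis of serine and glycine with the one-carbon units they feed; synthesis of asparagine, proline and cysteine; transaminases with glutamine synthetase; the SLC7 family of transporters with its heavy-chain partner; and transporters of other families.

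Promoter sequences, from RefSeq on GRCm38.p6 and running from 250 bases before to 50 bases after the gene's start, were found for 27 of the 32 measured genes. Those of Cth, Slc7a3, Slc7a5, Slc1a5 and Slc38a1 were not matched. The core of the C/EBP-ATF response element, spelled TGATGNAA and searched on both strands, was present in 4 of the 27 genes (14.8%), against 4.51% of 27025 genes and 3.97% of 32851 promoters. These 4 promoters are shown because they hold the letters that the ATF4 and C/EBP dimers are known to bind. They belong to Slc7a11 (chr3:50443564-50443863), Slc1a4 (chr11:20332664-20332963), Got1 (chr19:43524556-43524855) and Asns (chr6:7693160-7693459), all on the minus strand, written 5′ to 3′ along the gene with each match in capitals (TTGCATCA is TGATGCAA read on the other strand).
Slc7a11: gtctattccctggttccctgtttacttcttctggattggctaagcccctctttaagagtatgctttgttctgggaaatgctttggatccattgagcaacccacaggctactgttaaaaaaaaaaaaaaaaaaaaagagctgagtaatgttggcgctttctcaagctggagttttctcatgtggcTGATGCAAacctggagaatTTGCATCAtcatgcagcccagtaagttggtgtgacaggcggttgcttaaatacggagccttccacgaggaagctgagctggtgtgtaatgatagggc
Slc1a4: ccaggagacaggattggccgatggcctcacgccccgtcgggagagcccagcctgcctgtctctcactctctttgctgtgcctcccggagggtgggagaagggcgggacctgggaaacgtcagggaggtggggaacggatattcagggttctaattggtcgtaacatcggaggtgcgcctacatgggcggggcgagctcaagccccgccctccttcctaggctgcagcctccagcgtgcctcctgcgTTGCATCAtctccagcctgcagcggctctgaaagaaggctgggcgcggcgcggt
Got1: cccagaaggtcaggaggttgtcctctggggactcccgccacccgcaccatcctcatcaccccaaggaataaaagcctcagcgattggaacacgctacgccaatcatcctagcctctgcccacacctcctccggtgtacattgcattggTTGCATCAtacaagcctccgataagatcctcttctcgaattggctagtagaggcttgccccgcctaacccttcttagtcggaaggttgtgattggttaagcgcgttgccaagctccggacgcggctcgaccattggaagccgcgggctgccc
Asns: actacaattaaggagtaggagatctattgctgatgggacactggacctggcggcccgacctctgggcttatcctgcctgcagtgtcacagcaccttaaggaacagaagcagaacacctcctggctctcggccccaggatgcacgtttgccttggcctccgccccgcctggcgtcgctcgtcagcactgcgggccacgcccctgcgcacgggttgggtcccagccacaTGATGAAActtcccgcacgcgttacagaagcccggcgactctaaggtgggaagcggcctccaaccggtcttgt
Slc7a11 had 2 matches that faced each other, their first bases 66 and 47 bases before the start. The first base of the match lay 23 bases before the start in Asns, 102 in Got1 and 4 in Slc1a4, where it spans the start. The core of the antioxidant response element, TGACNNNGC on both strands, was present in 9 of the 27 genes (33.3%), against 13.99% of all genes and 12.4% of all promoters; Asns alone held both cores, which did not overlap there. A match describes these letters and shows no binding.

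Cebpb, the gene that encodes LIP and the longer forms of C/EBPβ, was checked first. Its log2 intensity was 11.02, 11.27 and 11.24 with doxycycline alone, 11.31, 11.36 and 11.32 with doxycycline and 5 h of tunicamycin, and 11.51, 11.47 and 11.58 with doxycycline and 12 h. Without doxycycline it was 9.26, 9.26 and 9.48 in vehicle, 9.47, 9.60 and 9.48 at 5 h, and 10.38, 10.23 and 10.28 at 12 h. Every doxycycline array lay above every array without doxycycline; the probe set reads the whole gene and does not separate LIP from the longer isoforms. All 8 melanocyte markers (Mitf, Sox10, Tyr, Tyrp1, Dct, Pmel, Mlana and Mc1r) had a mean above 6.08, the level under which 95% of 1190 olfactory and vomeronasal receptor genes fell, a stand-in for silent genes. Of 8 markers of other cell types, Ptprc, Pecam1 and Epcam lay below that level, while Cd68, Cdh5, Col3a1, Pdgfra and Krt8 lay above it. Arrays of a group correlated across genes at r between 0.997 and 0.999, and array medians, averaged by group, lay within 0.058 of each other. All 32 genes of the list had a mean above the silent level over the 18 arrays, although Slc7a3 averaged 6.04 with doxycycline and 5 h of tunicamycin and 6.01 in vehicle, both below it.

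After 12 h of tunicamycin without doxycycline, 24 of the 32 genes rose and 3 fell against vehicle, by limma at an adjusted p under 0.05, over all 19938 genes (such genes are called here). Of all genes 27.7% were called in this comparison, 11.9% as higher and 15.8% as lower. Outside the receptor genes used as a stand-in, 70.5% of genes averaged above the silent level, as all 32 of the list did. Shares over all genes, here and below, therefore include dim genes, of which the list has none by this measure. The median change of the list was 0.54 on the log2 scale, against 0.00 over all genes. In the same comparison 3 of the 8 melanocyte markers and 1 of the 8 markers of other cell types (Cd68) were lower by limma; their part in the list's changes was not tested. Enzymes and transporters both moved: 12 of 17 enzymes rose and 2 fell (median change 0.50), and 12 of 15 transporters rose and 1 fell (median change 0.61). Changes are differences between group means of log2 intensity, with their standard error (SE), and the number of arrays limits their precision.

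**Figure D1:**
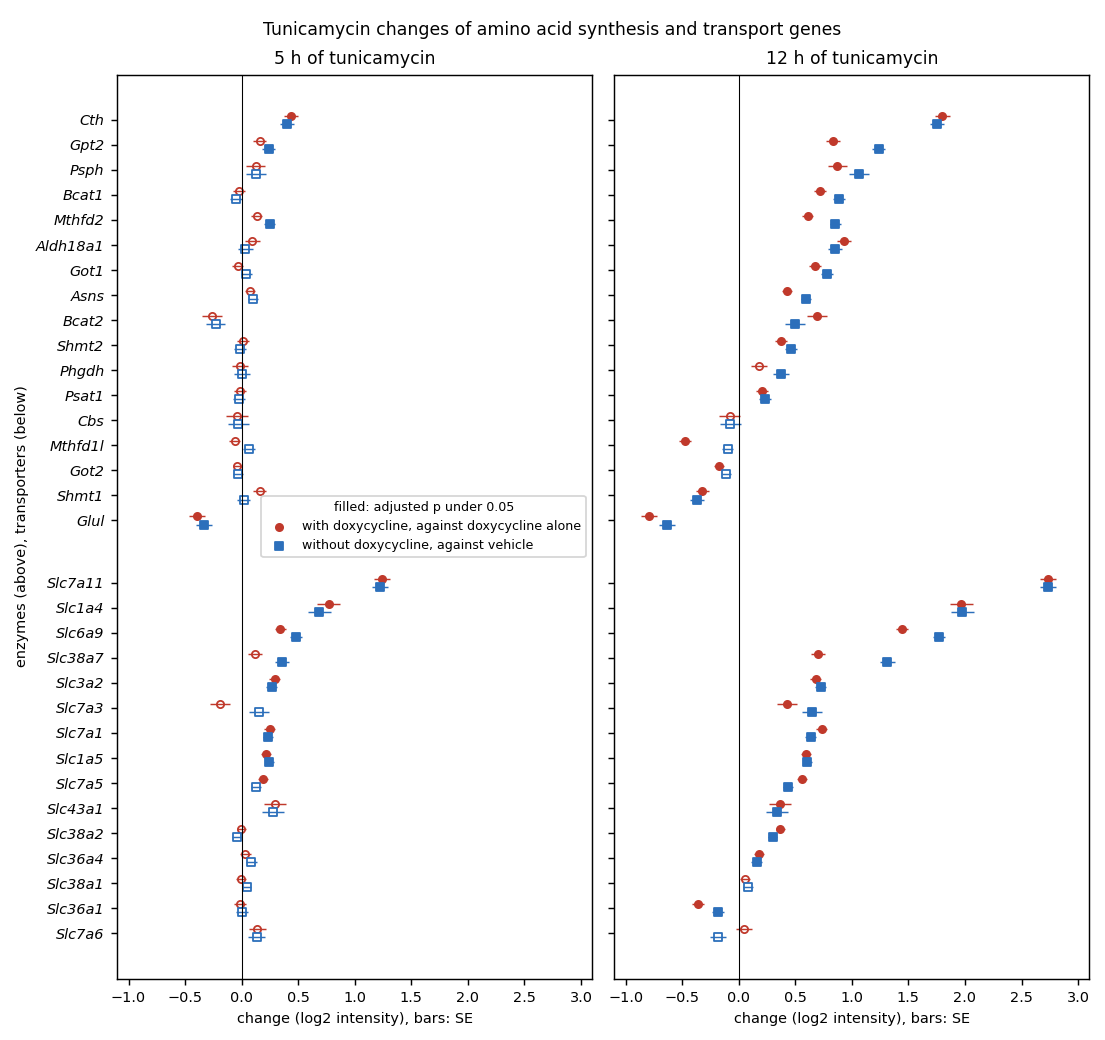
Change in log2 intensity (x axis) of each gene (rows, enzymes above transporters) after 5 h (left) and 12 h (right) of tunicamycin, with doxycycline against doxycycline alone (circles) and without doxycycline against vehicle (squares); bars are the SE and filled symbols passed an adjusted p of 0.05. At 12 h most points lie to the right of 0, Slc7a11 farthest at 2.73 in both arms, and Glul lies lowest at -0.79 with and -0.63 without doxycycline.

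Among transporters, Slc7a11, the cystine and glutamate exchanger that brings in cystine for cysteine and glutathione, changed most. Its level was 8.47, 8.43 and 8.51 in vehicle, 9.79, 9.54 and 9.75 at 5 h, and 11.12, 11.17 and 11.32 at 12 h. The 3 times did not overlap, and at 12 h it was 2.73 ± 0.070 higher than in vehicle (SE, limma adjusted p = 5.63e-15), a 6.65-fold difference in intensity. Slc1a4, a sodium-dependent carrier of alanine, serine and cysteine, read 9.05, 8.91 and 9.07 in vehicle, 9.77, 9.49 and 9.82 at 5 h, and 10.98, 10.98 and 11.001 at 12 h. That was a change of 1.98 ± 0.101 at 12 h (SE, limma adjusted p = 3.52e-11). Slc6a9, a glycine transporter of the plasma membrane, read 10.14, 10.19 and 10.20 in vehicle, 10.59, 10.67 and 10.70 at 5 h, and 11.88, 11.92 and 12.02 at 12 h, a change of 1.77 ± 0.050 (SE, limma adjusted p = 1.23e-14). Slc38a7, which moves glutamine and asparagine out of lysosomes, read 9.65, 9.56 and 9.68 in vehicle, 10.03, 9.87 and 10.08 at 5 h, and 10.97, 10.91 and 10.95 at 12 h, a change of 1.31 ± 0.063 (SE, limma adjusted p = 1.31e-11). In all 4 the vehicle arrays were lowest, the 5 h arrays between, and the 12 h arrays highest, with no overlap.

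Other transporters rose by less at 12 h. Slc3a2, the heavy chain that pairs with Slc7a11, Slc7a5 and Slc7a6 at the membrane, rose by 0.73. Slc7a1, a cationic amino acid carrier, rose by 0.64. Its relative Slc7a3 averaged 6.66 at 12 h, against 6.01 in vehicle, which is under the silent level, so the size of its called rise (0.65) was not measured from a level above background. Slc1a5, the main glutamine carrier of its family, rose by 0.61, Slc7a5, which exchanges large neutral amino acids, by 0.43, and Slc38a2, a sodium-coupled neutral amino acid carrier known to respond to amino acid shortage, by 0.30. Slc43a1, another large neutral amino acid carrier, rose by 0.34, Slc36a4, a proton-linked family member, rose by 0.16, and its relative Slc36a1, which exports small amino acids from lysosomes, fell by 0.18. Those last 3 calls were lost without the vehicle array of experiment 1 (adjusted p = 0.0523 for Slc43a1, 0.0501 for Slc36a4 and 0.0742 for Slc36a1). Some were also lost without 1 other array: the 12 h array of experiment 2 for Slc43a1 (0.050007) and Slc36a4 (0.0820), the vehicle array of experiment 3 for Slc36a4 (0.0602) and the 12 h array of experiment 1 for Slc36a1 (0.0649). Slc38a1 (0.08, limma adjusted p = 0.206) and Slc7a6 (-0.18, limma adjusted p = 0.0756) did not pass.

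Among enzymes, Cth, which releases cysteine from cystathionine at the end of transsulfuration, changed most. Its level was 9.48, 9.42 and 9.46 in vehicle, 9.92, 9.77 and 9.87 at 5 h, and 11.20, 11.21 and 11.22 at 12 h, a change of 1.76 ± 0.063 at 12 h (SE, limma adjusted p = 2.03e-13) and a 3.38-fold difference in intensity. Cbs, which makes the cystathionine that Cth uses, did not pass (-0.07, limma adjusted p = 0.667). Gpt2, the mitochondrial alanine transaminase, read 8.87, 8.70 and 8.84 in vehicle, 9.06, 8.96 and 9.11 at 5 h, and 10.05, 10.10 and 9.97 at 12 h, a change of 1.24 ± 0.058 (SE, limma adjusted p = 1.16e-11). The 12 h arrays of both Cth and Gpt2 stood well clear of the earlier ones.

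Psph, the last step of serine synthesis, read 9.65, 9.65 and 10.02 in vehicle, 9.82, 9.91 and 9.96 at 5 h, and 10.70, 10.92 and 10.88 at 12 h, a change of 1.06 ± 0.087 (SE, limma adjusted p = 2.02e-08). Its vehicle array of experiment 3 lay above all its 5 h arrays, and only the 12 h arrays stood apart. Bcat1, the cytosolic transaminase of branched-chain amino acids, read 10.62, 10.59 and 10.52 in vehicle, 10.54, 10.47 and 10.57 at 5 h, and 11.50, 11.41 and 11.48 at 12 h, a change of 0.89 ± 0.051 (SE, limma adjusted p = 1.72e-10). For Bcat1 the vehicle and 5 h arrays overlapped and the 12 h arrays lay above both.

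Of the serine, glycine and one-carbon enzymes, 5 of 7 rose at 12 h and 1 fell, with a median change of 0.38. The other enzymes of serine synthesis rose by less than Psph: Phgdh, the first step, by 0.38 and Psat1, the transaminase between them, by 0.24. In the mitochondrial one-carbon pathway Shmt2, which splits serine into glycine, rose by 0.46 and Mthfd2, which oxidises the unit it releases, rose by 0.85. Mthfd1l, which frees formate at the end of that pathway, did not pass at 12 h (-0.10, limma adjusted p = 0.185). Shmt1, the cytosolic counterpart of Shmt2, fell by 0.37 (limma adjusted p = 6.37e-05).

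Of the enzymes for asparagine, proline and cysteine, 3 of 4 rose at 12 h. Beside Cth these were Aldh18a1, which starts proline synthesis from glutamate, by 0.85, and Asns, asparagine synthetase, by 0.59. Of the transaminases with glutamine synthetase 4 of 6 rose and 1 fell. Got1, the cytosolic aspartate transaminase, rose by 0.78 and Bcat2, the mitochondrial branched-chain transaminase, by 0.50. Glul, which makes glutamine from glutamate and ammonia, went the other way. Its level was 10.12, 10.10 and 10.24 in vehicle, 9.95, 9.68 and 9.85 at 5 h, and 9.55, 9.57 and 9.45 at 12 h, with no overlap between the times. The change at 12 h was -0.63 ± 0.071 (SE, limma adjusted p = 1.06e-06), and its second probe set gave -0.64.

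**Figure D2:**
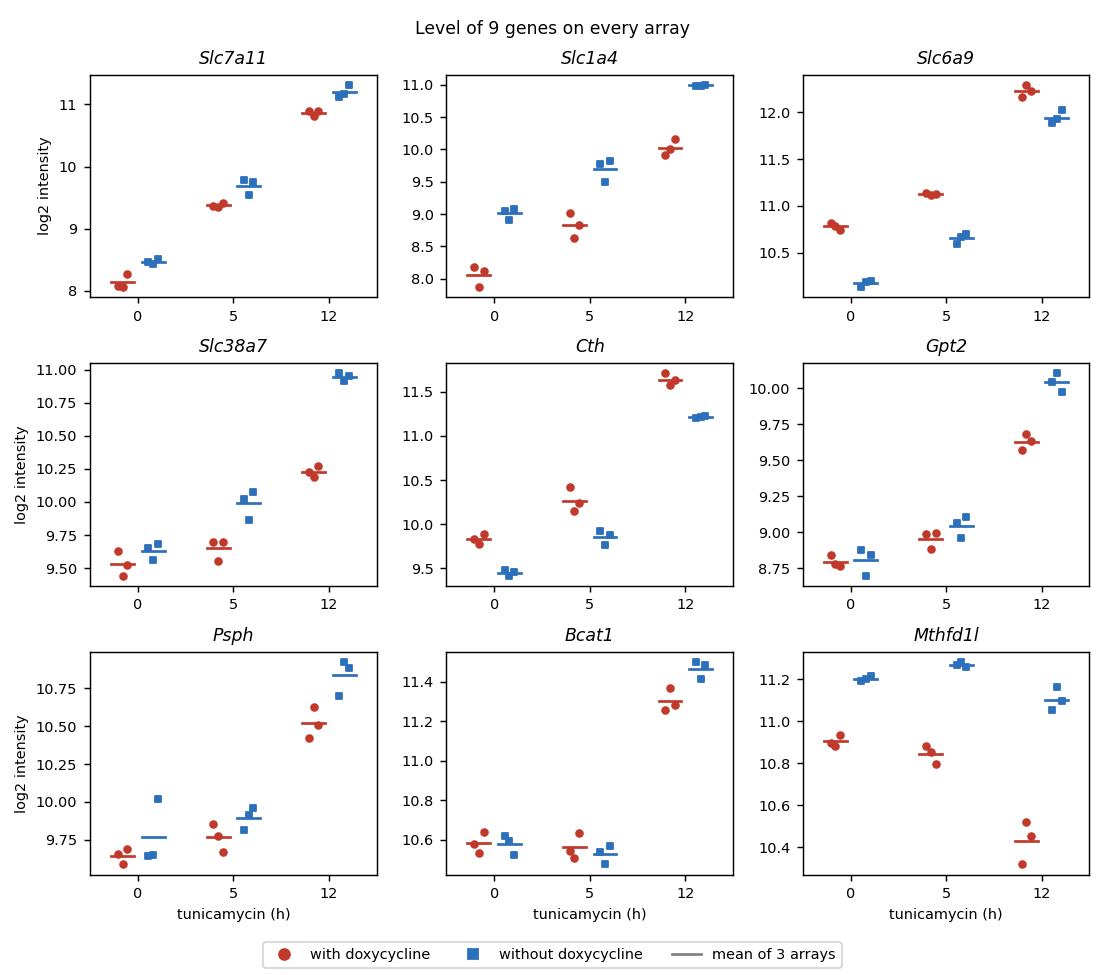
Log2 intensity (y axis, its own range in each panel) of 9 genes on every array, against hours of tunicamycin (x axis), with doxycycline (circles) and without (squares); lines are means of 3 arrays and 0 h is doxycycline alone or vehicle. Slc7a11, Slc1a4, Cth and Slc6a9 climb from 0 to 5 and 12 h in both arms, Bcat1 and Psph stand apart at 12 h, and the Slc38a7 arms part with time.

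At 5 h, 10 of the 32 genes had risen against vehicle and 1 had fallen, where 4.08% of all genes rose and 4.94% fell; the median change was 0.09. Transporters made up most of them: 7 of 15 rose (median change 0.23), against 3 of 17 enzymes, of which 1 also fell (median change 0.02). No limma call or unadjusted p under 0.05 went to a lower transporter (0 of 15 for both). The 7 transporters were Slc7a11 (1.22, limma adjusted p = 3.13e-09), Slc1a4 (0.68), Slc6a9 (0.48), Slc38a7 (0.36), Slc3a2 (0.26), Slc1a5 (0.25) and Slc7a1 (0.23). The 3 enzymes were Cth (0.40), Mthfd2 (0.25) and Gpt2 (0.24), and Glul fell by 0.33 (limma adjusted p = 0.00588). The call of Gpt2 was lost without the vehicle array of experiment 2 (adjusted p = 0.0819) or the 5 h array of experiment 3 (adjusted p = 0.0669). Slc43a1 (0.28) did not pass but did without the 5 h array of experiment 2, which had the widest spread of all arrays around its group (0.42, adjusted p = 0.00241). The count of 11 called genes fell to 7 without experiment 1 and to 3 without experiment 3, which leaves 2 arrays a group. Calls over all 19938 genes fell too, from 1798 to 655 without experiment 1 and to 419 without experiment 3.

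From 5 h to 12 h without doxycycline, 22 genes rose and 5 fell, where 25% of all genes were called, 11.4% as higher and 13.6% as lower. Those that fell were Shmt1, Glul, Slc7a6, Mthfd1l and Slc36a1. The calls of Mthfd1l and Slc36a1 were both lost without the 12 h array of experiment 1 (adjusted p = 0.0943 and 0.0680), that of Mthfd1l also without the 5 h array of experiment 2 (0.0568) or the 12 h array of experiment 3 (0.0553), and that of Slc36a1 without the 5 h array of experiment 3 (0.0511); 2 fell without experiment 1 and 2 without experiment 3. Of the melanocyte markers 4 of 8 were lower and 1 higher between these times. All 10 genes that had risen by 5 h rose again by 12 h. A further 14 rose at 12 h that had not passed at 5 h, 9 of them enzymes (Asns, Psat1, Psph, Phgdh, Shmt2, Aldh18a1, Got1, Bcat1 and Bcat2) and 5 transporters (Slc7a3, Slc7a5, Slc38a2, Slc43a1 and Slc36a4). Over the genes higher at 12 h, the share of the 12 h log2 change already present at 5 h had a median of 4.48% in 12 enzymes and 35.5% in 12 transporters. These shares describe the lists and were not tested. They ran from -46.6% (Bcat2) to 29.1% (Mthfd2) in enzymes and from -14.9% (Slc38a2) to 81.9% (Slc43a1) in transporters, so the classes overlapped. Slc7a11 had 44.8% of its 12 h change by 5 h and Cth 22.8%.

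The same list was followed in cells given doxycycline before tunicamycin, each time against doxycycline alone. At 5 h, 8 genes rose and 1 fell, where 6.54% of all genes rose and 5.56% fell. Transporters again made up 7 of the 8 (of 15, median change 0.19), and Cth was the 1 enzyme of 17 (median change -0.01). Without experiment 3 there were 5 calls in place of 9, and leaving out 1 array added Shmt1 or Slc7a6 (the doxycycline 5 h array of experiment 3, adjusted p = 0.0317 and 0.0171) or Bcat2 (that of experiment 1, adjusted p = 0.00794). At 12 h, 23 rose and 5 fell, where 29.9% of all genes were called (13.4% higher and 16.6% lower), with a median of 0.49 over the list against -0.02 over all genes. Of the melanocyte markers 6 of 8 were lower in that comparison, and of the markers of other cell types 2 of 8; their part was not tested. By class 11 of 17 enzymes rose and 4 fell (median change 0.43), and 12 of 15 transporters rose and 1 fell (median change 0.56). Between 5 and 12 h with doxycycline 22 rose and 5 fell, and of all genes 26.3% were called (10.9% higher and 15.4% lower). All 8 genes raised at 5 h rose again. The fall of Got2 was lost without the 12 h array of experiment 1 (adjusted p = 0.0919) or 3 (0.0787), or the 5 h array of experiment 3 (0.105). The rise of Slc36a4 was lost without either array of experiment 2 or 3 (between 0.0584 and 0.113). Phgdh passed as higher without either array of experiment 1 (0.0427 and 0.00886). Slc7a6 passed as lower without the 5 h array of experiment 3 (0.0282). Of the melanocyte markers 5 of 8 were lower between 5 and 12 h with doxycycline, and of the markers of other cell types 2 of 8. The median share of the 12 h change present at 5 h was 10.2% in 11 enzymes and 33.7% in 12 transporters.

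Slc7a11 read 8.07, 8.06 and 8.27 with doxycycline alone, 9.37, 9.34 and 9.42 with 5 h of tunicamycin, and 10.90, 10.81 and 10.90 with 12 h, a 12 h change of 2.73. Slc1a4 read 8.19, 7.88 and 8.12 with doxycycline alone, 9.02, 8.64 and 8.83 at 5 h, and 9.91, 10.01 and 10.16 at 12 h, a change of 1.97. Cth read 9.84, 9.77 and 9.89 with doxycycline alone, 10.42, 10.14 and 10.24 at 5 h, and 11.71, 11.57 and 11.63 at 12 h, a change of 1.80. None of these 3 genes overlapped between the times. Psph read 9.66, 9.59 and 9.69 with doxycycline alone, 9.85, 9.78 and 9.67 at 5 h, and 10.42, 10.62 and 10.51 at 12 h. Bcat1 read 10.58, 10.53 and 10.64 with doxycycline alone, 10.54, 10.51 and 10.63 at 5 h, and 11.26, 11.37 and 11.28 at 12 h. For both, the 0 and 5 h arrays overlapped and the 12 h arrays lay above them, as without doxycycline. Slc6a9 rose by 1.44, Aldh18a1 by 0.93, Psph by 0.87, Gpt2 by 0.83, Slc7a1 by 0.73, Bcat1 by 0.72, Slc38a7 by 0.70, Bcat2 by 0.69, Slc3a2 and Got1 by 0.68, and Asns by 0.43.

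Genes called at 12 h were largely those called without doxycycline: 23 rose in both arms and 3 (Glul, Shmt1 and Slc36a1) fell in both. A further 3 genes passed in 1 arm, though the difference between arms was itself called for Mthfd1l alone of these. That difference, with doxycycline minus without, was -0.20 for Phgdh (limma adjusted p = 0.431) and -0.06 for Got2 (limma adjusted p = 0.740). Phgdh rose without doxycycline by 0.38 but not with it (0.18, limma adjusted p = 0.0689; 0.25 and adjusted p = 0.0103 without the doxycycline 12 h array of experiment 1). Mthfd1l fell with doxycycline (-0.47, limma adjusted p = 5.20e-07) and so did Got2, the mitochondrial aspartate transaminase (-0.17, limma adjusted p = 0.00366), which without doxycycline gave -0.11 (limma adjusted p = 0.0699). With doxycycline, Slc43a1 and Slc36a4 rose by 0.36 and 0.18, and these calls were lost without the doxycycline-alone array of experiment 2 for Slc43a1 (adjusted p = 0.05003) and of experiment 3 for Slc36a4 (adjusted p = 0.0513).

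The tunicamycin change with doxycycline minus the change without was then tested. Doxycycline alone was read at 0 h only. A doxycycline effect that changes with time therefore cannot be told apart from an altered response to tunicamycin. At 12 h the change of 4 genes was smaller, or further down, with doxycycline and that of 0 genes greater. Of all genes 1.84% were called in this test (0.848% lower and 0.993% higher). At an unadjusted p under 0.05, 8 of the 32 were lower and 1 higher. The 4 were Slc38a7, Gpt2, Mthfd1l and Slc6a9. The same test called 2 of the 8 melanocyte markers as lower, and their part was not tested. Slc38a7 differed by -0.62 ± 0.089 (SE, limma adjusted p = 0.000738): it rose by 0.70 with doxycycline and by 1.31 without. Its 12 h arrays read 10.22, 10.19 and 10.27 with doxycycline and 10.97, 10.91 and 10.95 without, whereas at 0 h they read 9.63, 9.44 and 9.52 with doxycycline and 9.65, 9.56 and 9.68 in vehicle, where the arms overlapped.

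Gpt2 differed by -0.40 ± 0.082 (SE, limma adjusted p = 0.0131). At 12 h it read 9.57, 9.68 and 9.63 with doxycycline and 10.05, 10.10 and 9.97 without, and at 0 h 8.84, 8.78 and 8.77 with doxycycline and 8.87, 8.70 and 8.84 in vehicle. It thus started from overlapping levels, as Slc38a7 did. Mthfd1l differed by -0.38 ± 0.072 (SE, limma adjusted p = 0.00824), with 12 h levels of 10.32, 10.52 and 10.45 with doxycycline and 11.05, 11.16 and 11.09 without. At 0 h the arms of Mthfd1l were already apart, at 10.90, 10.88 and 10.94 with doxycycline and 11.19, 11.20 and 11.21 in vehicle. Slc6a9 differed by -0.33 ± 0.070 (SE, limma adjusted p = 0.0189), yet its level stayed higher with doxycycline at 0 and 12 h, as described below.

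The call of Slc6a9 did not hold when some single arrays were left out, with differences between -0.31 and -0.29 in place of -0.33. Its adjusted p was 0.0593 without the vehicle array of experiment 1, 0.0619 without the doxycycline-alone array of experiment 1, 0.0516 without the doxycycline 12 h array of experiment 1, and 0.0578 when experiment 3 gave up its tunicamycin 12 h array. All 4 differences had the same sign in 3 of 3 experiments, and with 2 arrays a group, 0 of the 4 passed without experiment 1 or 3 and 3 genes passed without experiment 2.

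For most other genes the difference was small and its interval included 0. Slc7a11 differed by 0.00 with a 95% interval from -0.21 to 0.21, Slc1a4 by -0.01 (-0.31 to 0.29), Cth by 0.05 (-0.14 to 0.23) and Slc3a2 by -0.05 (-0.19 to 0.10). These intervals reached between 0.123 and 0.301 to either side over the 32 genes, before any adjustment for the number of genes. Mthfd2 differed by -0.24 (-0.39 to -0.10) and Asns by -0.17 (-0.30 to -0.03), neither of which passed after adjustment (adjusted p = 0.0902 and 0.255). Bcat1 differed by -0.17 (-0.32 to -0.02) and Slc36a1 by -0.18 (-0.33 to -0.02), and Slc7a6 went the other way by 0.23 (0.01 to 0.45). These did not pass after adjustment either (limma adjusted p = 0.330, 0.303 and 0.364). Across the 32 genes the 12 h changes with and without doxycycline, which share no arrays, correlated at Pearson r = 0.969 and Spearman rho = 0.954, a description over genes that share these libraries. The median of the change with doxycycline minus that without was -0.04.

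**Figure D3:**
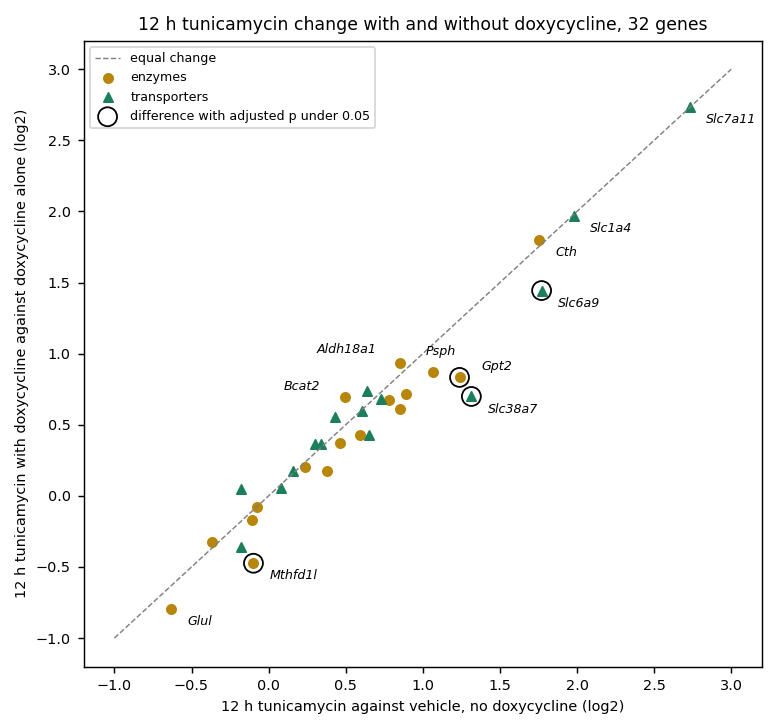
Each point is 1 gene, with its 12 h tunicamycin change with doxycycline (y axis, log2) against that without doxycycline (x axis, log2); circles are enzymes, triangles transporters, the dashed line marks equal change, and rings mark a difference with adjusted p under 0.05. Slc38a7, Gpt2, Mthfd1l and Slc6a9 are ringed and lie below the line, while Slc7a11, Slc1a4 and Cth lie on or near it.

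At 5 h the same test called 0 of the 32 genes with limma, where 0.0301% of all genes passed, and 2 had an unadjusted p under 0.05, both lower. They were Slc7a3 (-0.34 ± 0.123, SE, limma adjusted p = 0.495), of which 2 of the 4 groups compared (doxycycline with 5 h of tunicamycin, and vehicle) lay under the silent level, and Slc38a7 (-0.24 ± 0.089, SE, limma adjusted p = 0.496). Under array weights Slc7a3 passed (-0.45, adjusted p = 0.0473), with the same limit on its level.

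Doxycycline shifted part of the list before any tunicamycin. Against vehicle 4 genes rose and 8 fell at 0 h, where 4.89% of all genes rose and 5.82% fell, and the list median was -0.07 against 0.02 over all genes. Slc1a4 fell most, with 8.19, 7.88 and 8.12 under doxycycline alone and 9.05, 8.91 and 9.07 in vehicle, a change of -0.95 ± 0.101 (SE, limma adjusted p = 6.61e-06) and an intensity ratio of 0.517. The other genes that fell were Glul (-0.53), Shmt1 (-0.40), Aldh18a1 (-0.39), Slc7a11 (-0.34), Slc7a5 (-0.34), Mthfd1l (-0.30) and Got1 (-0.28). Slc6a9 rose most, with 10.82, 10.79 and 10.75 under doxycycline alone and 10.14, 10.19 and 10.20 in vehicle, a change of 0.61 ± 0.050 (SE, limma adjusted p = 2.48e-07). Cth rose by 0.38, Mthfd2 by 0.30 and Asns by 0.19; the call of Asns was lost without the vehicle array of experiment 2 (adjusted p = 0.0510). With the experiment as a block Shmt2 also passed as lower (-0.16, adjusted p = 0.0320).

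**Figure D4:**
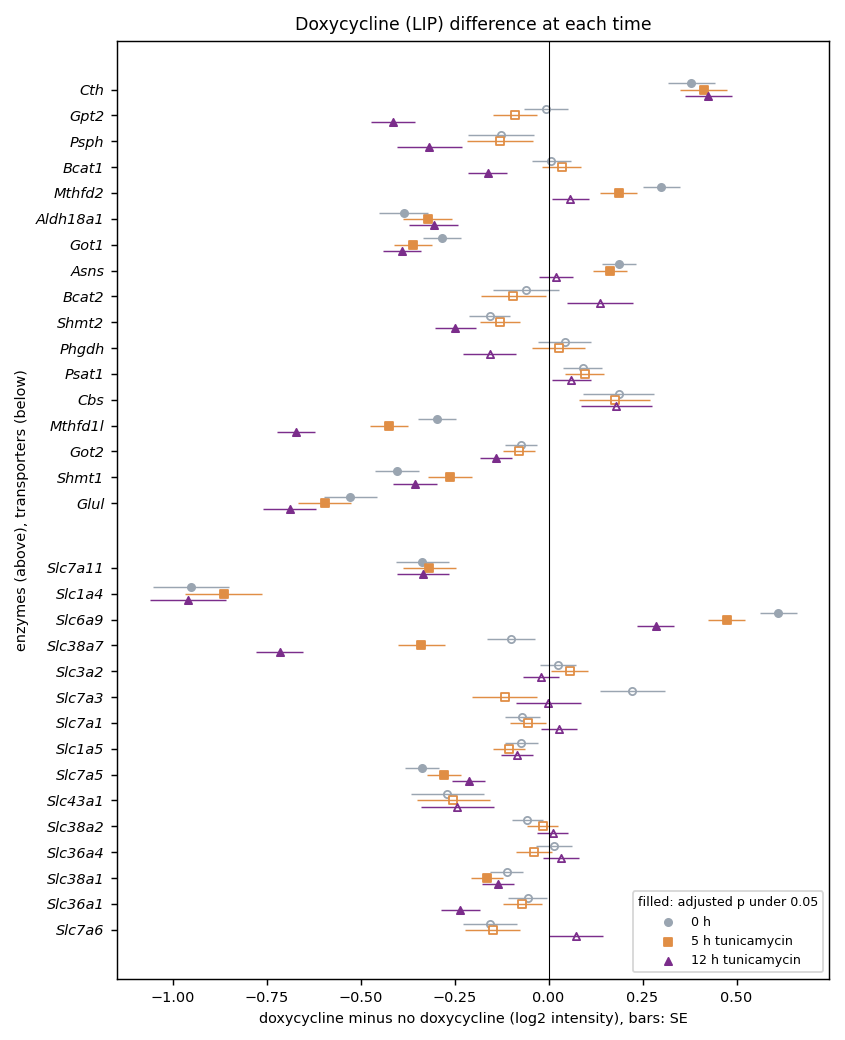
Difference in log2 intensity between cells with and without doxycycline (x axis) for each gene (rows, enzymes above transporters) at 0 h (circles), 5 h (squares) and 12 h (triangles) of tunicamycin; bars are the SE and filled symbols passed an adjusted p of 0.05. Slc1a4 lies near -0.9 at each time, Cth near 0.4, and Slc38a7, Gpt2 and Mthfd1l lie further left at 12 h than at 0 h.

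The same 8 genes were lower with doxycycline at 0, 5 and 12 h, and Cth and Slc6a9 were higher at all 3 times. After 5 h of tunicamycin 4 genes were higher with doxycycline and 10 lower, against 6.76% and 5.21% of all genes. Slc38a7 (-0.34) and Slc38a1 (-0.16) joined the lower genes, and Mthfd2 (0.19) and Asns (0.16) were among the higher. Leaving out single arrays ended 3 of these calls. Asns had adjusted p between 0.0770 and 0.0936 without any 1 of 3 arrays. These were the tunicamycin 5 h arrays of experiments 2 and 3 and the doxycycline 5 h array of experiment 1. Mthfd2 lost its call when experiment 3 gave up either its tunicamycin 5 h array (0.0844) or its doxycycline 5 h array (0.0720), and Slc38a1 had between 0.0515 and 0.0749 without either 5 h array of experiments 2 and 3. Leaving out 1 array also added lower calls. Slc43a1 (-0.40, limma adjusted p = 0.00188) and Shmt2 (-0.19, limma adjusted p = 0.0289) passed without the tunicamycin 5 h array of experiment 2. Slc7a6 (-0.24, limma adjusted p = 0.0324) passed without the doxycycline 5 h array of experiment 1. Without experiment 3 the 14 calls came to 7.

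After 12 h of tunicamycin 16 genes were lower with doxycycline and 2 higher, against 7.77% and 6.95% of all genes, and the list median was -0.15, against 0.00 over all genes. Of the enzymes 10 of 17 were lower and 1 higher (median -0.16); of the transporters 6 of 15 were lower and 1 higher (median -0.08). Beside the 8 genes already lower at 0 h, the lower genes were Psph (-0.32), Shmt2 (-0.25), Gpt2 (-0.41), Got2 (-0.14), Bcat1 (-0.16), Slc38a7 (-0.72), Slc38a1 (-0.13) and Slc36a1 (-0.24). Slc1a4 was lower by 0.96 at 12 h, with 9.91, 10.01 and 10.16 under doxycycline and 10.98, 10.98 and 11.001 without, and Glul by 0.69, with 8.76, 8.94 and 8.80 under doxycycline and 9.55, 9.57 and 9.45 without. The arms did not overlap for either gene. Cth was higher by 0.43, at 11.71, 11.57 and 11.63 with doxycycline and 11.20, 11.21 and 11.22 without, and Slc6a9 by 0.28, at 12.16, 12.29 and 12.23 with doxycycline and 11.88, 11.92 and 12.02 without.

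Calls of Psph, Got2, Bcat1 and Slc38a1 at 12 h did not hold when single arrays were left out, though the differences kept their sign. Leaving out any 1 of 4 of the 6 arrays compared ended the call of Psph (adjusted p between 0.0550 and 0.0903), of Got2 (between 0.0745 and 0.119) and of Bcat1 (between 0.105 and 0.141). For Slc38a1 any 1 of 5 did so (adjusted p between 0.0804 and 0.131). These arrays were the 12 h arrays of experiments 1 and 3 with doxycycline and of experiments 2 and 3 without for Psph, those of experiments 1 and 3 with doxycycline and 1 and 2 without for Got2, those of experiments 1 and 3 of both arms for Bcat1, and all but that of experiment 1 without doxycycline for Slc38a1. Phgdh passed as lower without the doxycycline array of experiment 2 (-0.24, adjusted p = 0.0168). The 18 calls came to 11 without experiment 1 and to 9 without experiment 3.

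Melanocyte markers moved with doxycycline in the same arrays. Of the 8, 6 were lower with doxycycline at 0 h, 7 at 5 h and 7 at 12 h. Their mean log2 intensity on an array lay between 11.41 and 11.44 with doxycycline alone against 11.78 and 11.83 in vehicle, between 11.36 and 11.46 against 11.79 and 11.89 at 5 h, and between 11.06 and 11.09 against 11.63 and 11.68 at 12 h. The 8 markers of other cell types averaged between 6.24 and 6.44 on every array, with 1 of 8 lower at 0 h and at 5 h. That gene was Cd68, listed here as a leukocyte marker, with a mean of 7.93 with doxycycline alone against 8.36 in vehicle. At 5 h its mean was 7.71 with doxycycline against 8.12 without. Ptprc, the other leukocyte marker of the list, averaged 5.28 over all arrays, under the silent level. All arrays are bulk samples of the same melanoma line. A lower level in every cell and in some cells only cannot be told apart in them. The part of these shifts in the differences above was not tested.

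Paralogues that work in different compartments or carry related substrates did not always move alike. Shmt2, in mitochondria, rose by 0.46 at 12 h and by 0.37 with doxycycline, while Shmt1, in the cytosol, fell by 0.37 and by 0.32. Got1 and Got2 showed the opposite assignment: the cytosolic Got1 rose by 0.78, whereas the mitochondrial Got2 gave -0.11. Both branched-chain transaminases rose at 12 h, Bcat1 by 0.89 and Bcat2 by 0.50. At 5 h Bcat2 gave -0.23 (limma adjusted p = 0.118), and with doxycycline -0.27 (limma adjusted p = 0.0579). The latter passed with the experiment as a block (adjusted p = 0.0330). It also passed without the doxycycline 5 h array of experiment 1 (-0.37, adjusted p = 0.00794). Slc1a4 and Slc1a5 both rose, by 1.98 and 0.61, but with doxycycline alone Slc1a4 changed by -0.95 and Slc1a5 by -0.07 (limma adjusted p = 0.356). Differences between paralogues were not tested, since each is read by its own probes.

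Known regulators and targets of ATF4 signalling gave the following changes at 12 h without doxycycline. Ddit3 rose by 2.89, Trib3, a pseudokinase that feeds back on ATF4, by 2.91, Chac1, which degrades glutathione, by 2.31 and Atf4 by 1.07. At 5 h Chac1 rose by 1.55, Ddit3 and Trib3 by 1.17 and Atf4 by 0.36. With doxycycline at 12 h against doxycycline alone, Ddit3 rose by 2.95, Trib3 by 2.41, Chac1 by 1.86 and Atf4 by 0.80. Their levels with doxycycline differed from those without at 12 h by -0.28 for Ddit3, -0.41 for Trib3, -0.61 for Chac1 and 0.09 for Atf4, the last not passing (limma adjusted p = 0.453). At earlier times Atf4 averaged 10.14 with doxycycline alone against 9.78 in vehicle, and 10.43 with doxycycline against 10.15 without at 5 h. In the same order Ddit3 averaged 8.38 against 8.72 and 9.69 against 9.90. Trib3 averaged 7.96 against 7.87 and 8.79 against 9.03, and Chac1 9.11 against 9.27 and 10.35 against 10.82. The response of Chac1 was smaller with doxycycline by 0.45 (adjusted p = 0.0175), and that of Trib3 gave -0.50 (adjusted p = 0.0533).

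By promoter, the 4 genes whose sequences are printed above changed at 12 h by 2.73 (Slc7a11), 1.98 (Slc1a4), 0.78 (Got1) and 0.59 (Asns), a median of 1.38. The 23 genes with a matched promoter and no match to that core ranged from -0.63 to 1.77, with a median of 0.38. These medians describe the lists and their difference was not tested. The 9 genes with the antioxidant response element core ranged from -0.18 (Slc7a6) to 1.77 (Slc6a9). With doxycycline alone Slc7a11, Slc1a4 and Got1 were lower and Asns was higher, as given above, so the 4 did not share a direction there.

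Another 48 genes of amino acid and one-carbon metabolism, 15 enzymes and 33 transporters, were listed for comparison. At 12 h without doxycycline 7 of them rose and 12 fell, where 11.9% of all genes rose and 15.8% fell, with a median of -0.03, and 12 of the 48 lay below the silent level. Aldh1l2, the mitochondrial enzyme that turns formyl-tetrahydrofolate into carbon dioxide and tetrahydrofolate, rose most, by 2.45. Its level was 9.43, 9.25 and 9.24 in vehicle, 9.97, 9.71 and 10.03 at 5 h, and 11.78, 11.71 and 11.77 at 12 h. With doxycycline Aldh1l2 read 8.91, 8.88 and 8.91 at 0 h, 9.13, 9.02 and 9.14 at 5 h, and 10.25, 10.35 and 10.44 at 12 h, so that its 12 h change was 1.45 and differed from that without doxycycline by -0.9995 (limma adjusted p = 2.33e-05). Its cytosolic relative Aldh1l1 fell by 0.67 at 12 h, Tyms, thymidylate synthase, by 0.61, and Slc25a13, the mitochondrial aspartate and glutamate carrier, by 0.60. At 5 h Slc25a32, which carries folate into mitochondria, rose by 0.41, and it then fell by 0.57 between 5 and 12 h.

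**Figure D5:**
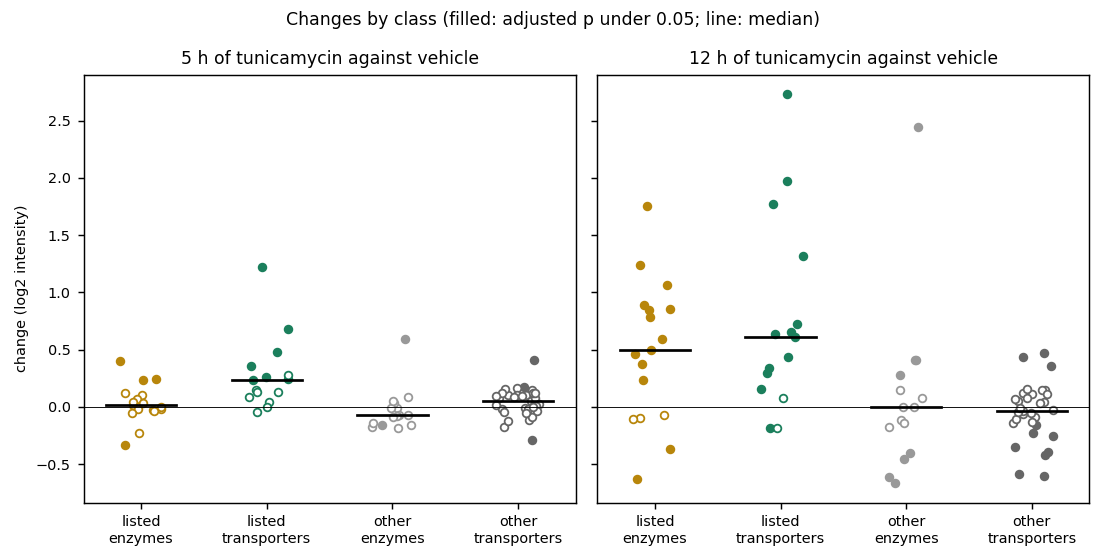
Change in log2 intensity (y axis) after 5 h (left) and 12 h (right) of tunicamycin against vehicle for the listed enzymes and transporters and for the other enzymes and transporters of the pathway (x axis); each point is 1 gene, filled where its adjusted p was under 0.05, and lines are medians. The listed transporters have a median of 0.23 at 5 h and 0.61 at 12 h, the listed enzymes 0.02 and 0.50, and the single high point among the other enzymes at 12 h is Aldh1l2 at 2.45.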

How the data were processed

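RNA from 18 samples of B16 F10.9-4 cells was made into cDNA with an Ambion WT Expression kit and labelled, per the labels' protocols, then hybridised to one-colour Affymetrix arrays. For 35557 probe sets, the values the authors deposited are log2 intensities from RMA run in Partek per the submitters' processing notes; versions and settings are not given in the sources used here. Fold changes of dim probe sets come out too small after RMA. No further normalization was applied.

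The platform's annotation supplied gene symbols: 23410 probe sets were listed, 21789 with 1 symbol and 1621 with several. The other 12147 of the 35557 probe sets had no symbol. The Entrez IDs of 21698 were found in a RefSeq gene table, and 0 symbols differed. Where a gene had several probe sets (999 genes) the brightest on average stood for it, leaving 19938 genes. Glul, Got2 and Slc38a1 had 2 probe sets each; those of Slc38a1 gave 0.08 and -0.05 at 12 h of tunicamycin and the others agreed to 0.01.

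Arrays were grouped by their labels. limma 3.58.1 (R 4.3.3) was fitted to the 6 group means over all 18 arrays, without a block (12 residual and 5.99 prior degrees of freedom), and p-values were adjusted by Benjamini-Hochberg over all genes in each of 11 comparisons. The procedure was tested on simulated data. The members, the classes, the list of other pathway genes and the promoter motifs were chosen with earlier results of these data known. Per-array values are given for the 4 enzymes and 4 transporters with the largest called change at 12 h of tunicamycin and for members called in the interaction at 12 h; Glul, the largest fall, and Aldh1l2 were added after their values were seen. Other pathway genes are named, up to 4 per comparison, by largest called change.

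The series design describes 3 independent experiments with all 6 groups in each, so arrays that share a replicate number come from 1 experiment; this pairing entered as a block in an alternative fit only, and p-values measure the spread between these experiments. As a check, deviations from the group means had a median r of 0.04 over 45 pairs of arrays with the same number (-0.50 to 0.50, 14 over 0.1) and -0.04 over pairs with different numbers. Alternatives were a replicate block, a fit of the compared groups alone, leaving out genes under the silent level, repeated quantile normalization, equal array medians, array weights, a robust fit with a variance trend, averaging over the probe sets of each gene, and leaving out each array or each experiment.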

Additional observations from a re-analysis of the deposited data

Results flagged for a closer look

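For 4 genes the 12 h tunicamycin change differed between cells with and without doxycycline by a test of the difference itself (limma, adjusted p under 0.05 over all genes). On the log2 scale the change with doxycycline minus that without was -0.62 for Slc38a7, -0.40 for Gpt2, -0.38 for Mthfd1l and -0.33 for Slc6a9. Over 23 alternative fits these values kept their sign, between -0.67 and -0.56 for Slc38a7, -0.47 and -0.35 for Gpt2, -0.42 and -0.32 for Mthfd1l, and -0.37 and -0.29 for Slc6a9. Slc38a7, Gpt2 and Mthfd1l passed in 21 of the 23 and Slc6a9 in 16. Slc38a7 and Gpt2 had overlapping levels in both arms at 0 h, while Mthfd1l was already lower and Slc6a9 already higher with doxycycline. Since doxycycline alone was read at 0 h only, a doxycycline effect that changes with time cannot be told apart from an altered tunicamycin response.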

How the results depend on the processing

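No call turned its direction under any alternative, and of 177 calls over the 32 genes and 11 comparisons the replicate block ended 0 and added 2 (Shmt2 for doxycycline alone and Bcat2 for 5 h of tunicamycin with doxycycline); it changed no other call. Leaving out 1 array at a time ended 19, leaving out 1 experiment ended 50 and the other settings ended 14. Counts of genes called stayed within 1.5 times under the settings that keep all arrays, except that array weights gave 1 in place of 0 for the 5 h difference between arms. Leaving out an array or experiment gave 3 to 12 genes for 5 h of tunicamycin (11 with all arrays), 24 to 27 for 12 h (27), 24 to 27 for 12 h against 5 h (27), 5 to 11 for 5 h with doxycycline (9), 25 to 29 for 12 h with doxycycline (28), 24 to 28 for 12 h against 5 h with doxycycline (27), 8 to 12 for doxycycline alone (12), 7 to 14 for doxycycline at 5 h (14), 9 to 18 for doxycycline at 12 h (18), 0 to 0 for the 5 h difference between arms and 0 to 4 for that at 12 h (4). The lowest of the counts that moved most came from leaving out experiment 3: 3 genes for 5 h of tunicamycin (7 without experiment 1), 5 for 5 h with doxycycline, 7 for doxycycline at 5 h, 9 for doxycycline at 12 h (11 without experiment 1) and 0 for the 12 h difference between arms (0 without experiment 1, 3 without experiment 2). These fits hold 2 arrays a group in place of 3, and calls over all 19938 genes fell in them too. Without experiment 3 those went from 1798 to 419 for 5 h of tunicamycin and from 2413 to 941 for 5 h with doxycycline. They went from 2386 to 1012 for doxycycline at 5 h and from 2936 to 1454 for doxycycline at 12 h. For the 12 h difference between arms they went from 367 to 39. The 95% intervals of the 12 h difference between arms reach 0.123 to 0.301 to either side before adjustment, which limits what 3 arrays a group can show.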
